A study of Mus musculus with 6 samples.

Results

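Aminoacyl-tRNA synthetases are the enzymes that join each amino acid to its transfer RNA, the step that supplies the ribosome and fixes which codon means which amino acid. The 36 synthetase genes described here were taken by name and matched by Entrez gene identifier. All 36 were found among the 22488 genes of the deposited tables, 20 for cytosolic and 16 for mitochondrial enzymes. RNA came from whole livers of male wild-type C57BL/6 mice aged 6 to 8 weeks, every animal after a 16 h fast. The control group (n = 3) received 200 µl of the salt solution HBSS by intraperitoneal injection, although another label of these samples reads "No treatment". The LPS group (n = 3) was given 6 mg/kg of lipopolysaccharide, the endotoxin of Gram-negative bacteria, by the same route. How long after injection the livers were taken is not given in the sources used here.

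Mitochondria make their own proteins and need their own charged transfer RNAs, so most amino acids have a cytosolic enzyme and a separate, also nuclear-encoded, mitochondrial one. Gars and Kars serve both compartments from 1 gene each, and were counted with the cytosolic enzymes. Several cytosolic enzymes sit together in the multisynthetase complex, which is held by the scaffold proteins Aimp1, Aimp2 and Eef1e1. Uncharged transfer RNA activates the kinase Eif2ak4 (GCN2), which phosphorylates the initiation factor eIF2 and raises translation of the transcription factor Atf4. Many cytosolic synthetase genes are known Atf4 targets, while Wars, the tryptophan enzyme, is known as a gene induced by interferon-gamma. The liver uses these enzymes to make plasma proteins, among them those of the acute phase.

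Atf4 binds, with a C/EBP partner, the C/EBP-ATF response element, and the promoters of the synthetases were therefore searched for it. The search used the letters TGATGNAA on both strands of RefSeq promoter windows (GRCm38.p6), from 250 bases before to 50 after a start site. A window was at hand for 27 of the 36 genes, and those without one were Cars, Hars, Lars, Nars, Rars, Vars, Wars, Hars2 and Pars2. The element was found in 5 of 13 cytosolic genes (38.5%) and in 0 of 14 mitochondrial genes, against 4.51% of the 27025 genes with a window. A match is shown for each of these 5 genes, which were picked by having one. Each run is 28 bases long, 5′ to 3′ on the strand of the gene, with the element in capitals, and positions count from the RefSeq start site.
Aars, 10, chr8:111033841-111033868, plus strand: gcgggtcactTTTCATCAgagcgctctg
Gars, -30, chr6:55037961-55037988, plus strand: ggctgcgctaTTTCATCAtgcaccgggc
Iars, 8, chr13:49682127-49682154, plus strand: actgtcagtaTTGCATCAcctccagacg
Tars, -15, chr15:11399656-11399683, minus strand: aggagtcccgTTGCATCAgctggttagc
Yars, 4, chr4:129189896-129189923, plus strand: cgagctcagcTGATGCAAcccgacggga

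Each of the 5 genes had a match whose first base lay within 30 bases of the start site. Aars had another match, farther away at -112, which is not shown. A match is a run of letters and does not show that a factor bound there. The gamma-activated site (TTCNNNGAA, palindromic in its fixed letters) was found in Aars, Kars and Nars2, against 9.55% of all genes with a window. The interferon-stimulated response element, searched on both strands as GAAA repeated after 2 free bases, was found in Qars, against 3.99%.

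The libraries held 11488525 to 20282004 counted reads, and 12078 genes passed the filter on low counts, among them all 36 synthetases. The lowest count of any synthetase in any library was 30 and the highest 3847. Of all tested genes, 62.3% differed between LPS and control livers (adjusted p under 0.05, edgeR), with 31.3% higher and 31.0% lower, and the median log2 fold change of all tested genes was 0.01. Levels are given in CPM, with the mean ± SD over the 3 libraries of a group. CPM is the count scaled to the size of its library times the TMM factor, a correction that edgeR estimates for each library. That factor was 0.9092 for LPS replicate 3, which raises its levels above those scaled by library size alone. It was 1.003 to 1.037 for the other libraries. A log2 fold change compares LPS with control livers, positive where LPS was higher, and SE is its standard error. Whether each library is a different mouse is left unsaid by the labels, so a p value reflects no more than the variation among these 6 samples, which may be technical. In RNA from whole liver, fewer cells of a type and less RNA per cell cannot be told apart.

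Cytosolic synthetases went both ways, and the mitochondrial ones that changed mostly fell. Among the 20 cytosolic enzymes there were 9 rises and 3 falls, and their log2 fold changes had a median of 0.17 and ran from -1.50 to 2.64. Of 16 mitochondrial enzymes 1 rose and 8 fell, with a median of -0.63 and a range from -2.39 to 1.21. The share of changed genes was 60% of the cytosolic and 56.2% of the mitochondrial enzymes, each near the 62.3% of all tested genes. The difference between the 2 lists was not tested. The libraries' summed level of the 20 cytosolic genes was 1089 to 1169 CPM in control and 1213 to 1368 CPM in LPS livers. For the 16 mitochondrial genes the sum was 284 to 297 CPM in control and 174 to 247 CPM in LPS livers. Single genes weigh on these sums, with Wars alone at 13.5 ± 1.62 CPM in control and 83.7 ± 10.8 CPM in LPS livers. The highest mitochondrial sum in LPS livers was that of LPS replicate 2, where Lars2 alone had 103 CPM. At least 2-fold changes were called in 8 synthetases, 3 higher and 5 lower. Of all tested genes 34.2% changed that much, 16.0% higher and 18.1% lower. The groups did not overlap in 10 synthetases that were higher and 16 that were lower in LPS livers, against 67.4% of all tested genes in either direction.

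**Figure D1:**
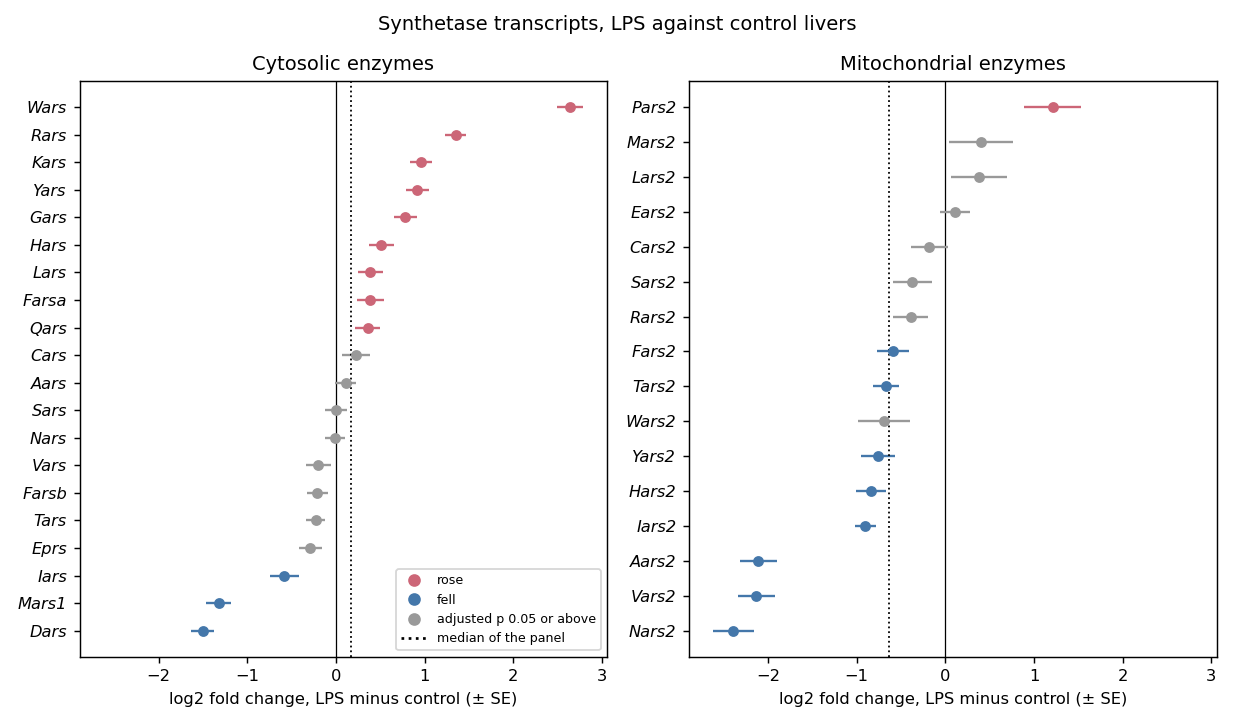
Log2 fold change (LPS minus control, bars ± SE, n = 3 libraries per group) of the 20 cytosolic and the 16 mitochondrial synthetase genes, coloured by edgeR call, with the median of each panel dotted. The dotted lines stand at 0.17 for the cytosolic and -0.63 for the mitochondrial enzymes, and Wars lies farthest right at 2.64.

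Wars, the cytosolic tryptophan enzyme (chromosome 12, 108860030 to 108894175), had the largest rise. Its level was 15, 11.8 and 13.8 CPM in control replicates 1, 2 and 3, and 81.2, 74.3 and 95.5 CPM in LPS replicates 1, 2 and 3. Every LPS library lay above every control library, and the raw counts went from 192 to 242 per control library to 952 to 1339 per LPS library. The change was 6.21-fold (log2 fold change 2.64, SE 0.15, adjusted p = 3.795e-09), and 2.51 to 2.72 on the log2 scale with any 1 library left out. Per kilobase of transcript, Wars ranked 23 of the 36 genes in control livers (7.41 ± 0.886 CPM per kilobase). In LPS livers it stood at 45.9 ± 5.91 CPM per kilobase.

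Rars, the cytosolic arginine enzyme (chromosome 11, 35808381 to 35834528), was the other cytosolic gene that rose at least 2-fold. It had 31.8, 28.7 and 34.4 CPM in the control livers and 77.8, 78.5 and 85.3 CPM in the LPS livers. The groups did not overlap, and the change was 2.55-fold (log2 fold change 1.35, SE 0.12, adjusted p = 5.231e-07). Non-overlapping groups are common in these data, with LPS higher in 34.0% and lower in 33.4% of tested genes. Kars, for lysine, rose from 43.3 ± 3.23 to 84.3 ± 6.76 CPM (0.96, SE 0.12). Yars, for tyrosine, rose from 21.3 ± 1.81 to 40.5 ± 1.41 CPM (0.92, SE 0.13), and Gars, for glycine, from 45.2 ± 3.47 to 77.4 ± 7.43 CPM (0.78, SE 0.13). These 3 genes kept every LPS library above every control library. Yars has a coding neighbour on the other strand, C77080, with 30 shared exon bases, which fell (-1.67).

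Smaller rises were called in Hars for histidine (0.51, SE 0.14), Lars for leucine (0.39, SE 0.14), Farsa, the catalytic phenylalanine subunit (0.39, SE 0.15), and Qars for glutamine (0.36, SE 0.14). Farsb, the other subunit of the same enzyme, stood at -0.21 (SE 0.12, adjusted p = 0.144). These 4 calls were lost under some settings. That of Hars ended without control replicate 3 (0.36). That of Lars ended without control replicate 2 (0.27), LPS replicate 2 (0.34) or LPS replicate 3 (0.35). That of Farsa was lost when control replicate 2 (0.32) or 3 (0.38), or LPS replicate 1 (0.31) or 3 (0.36), was left out. That of Qars was lost when control replicate 1 (0.37) or 2 (0.26), or LPS replicate 1 (0.36) or 3 (0.26), was left out. Library totals as the only scaling ended the calls of Lars (0.32), Farsa (0.32) and Qars (0.29), leaving 6 rises and 5 falls among the cytosolic enzymes. The call of Farsa was also lost with DESeq2 (0.39) and without a filter on low counts (0.36). The count of rises was also 6 without control replicate 2 and without LPS replicate 3.

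Dars, the cytosolic aspartate enzyme (chromosome 1, 128363707 to 128417416), had the largest fall of its class. It had 63.2, 69.7 and 75.1 CPM in the control livers and 22.8, 24.1 and 26.4 CPM in the LPS livers. LPS livers were 64.7% lower, with no overlap of the groups (log2 fold change -1.50, SE 0.13, adjusted p = 2.325e-07). Per kilobase, Dars ranked 2 of the 36 genes in control livers, at 31.9 ± 2.75 CPM per kilobase, and stood at 11.2 ± 0.856 in LPS livers. Mars1, the cytosolic methionine enzyme (chromosome 10, 127296221 to 127311786), charges both initiator and elongator transfer RNA. Its level was 56.4, 44.6 and 47.8 CPM in control and 18.2, 18.8 and 22.5 CPM in LPS livers, 59.9% lower (log2 fold change -1.32, SE 0.14, adjusted p = 2.425e-06). Its exons share 68 bases with Ddit3, a stress-induced transcription factor on the other strand, which rose (2.72). Iars, for isoleucine, fell from 38.3 ± 4.44 to 25.5 ± 5.27 CPM (-0.58, SE 0.16).

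The remaining 8 cytosolic genes did not pass the threshold. Aars, for alanine, had the highest level per length of all 36 genes in control livers, at 34.5 ± 2.04 CPM per kilobase. Its libraries read 211, 187 and 197 CPM in control and 204, 197 and 241 CPM in LPS livers, which overlap (0.11, SE 0.12, adjusted p = 0.464). Aars shares 1326 exon bases with the coding gene Exosc6 on the same strand, which had 0 CPM in both groups. Reads in those shared bases cannot be assigned, which limits the rank of Aars. Sars, for serine, had the smallest difference, with 46.1, 50.1 and 46.0 CPM in control and 50.7, 48.2 and 43.0 CPM in LPS livers (SE 0.12, adjusted p = 0.975). Nars, for asparagine, stood at 85.3 ± 3.51 and 85.0 ± 4.74 CPM. Eprs, which joins the glutamate and proline enzymes in 1 protein, had -0.29 (adjusted p = 0.0653), and this passed the threshold with library totals (-0.36), without a filter (-0.32) and without LPS replicate 3 (-0.35). Tars, for threonine (-0.23), Vars, for valine (-0.20), and Cars, for cysteine (0.23), make up the rest with Farsb, and Tars passed the threshold with library totals (-0.30). For a gene that missed the threshold a change within its error is not excluded.

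The 5 cytosolic genes with a C/EBP-ATF element did not share a direction. Gars and Yars rose, Iars fell, and Aars and Tars did not pass the threshold. Of the 8 cytosolic genes with a window and no match, Farsa, Kars and Qars rose and Dars and Mars1 fell.

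Nars2, Vars2 and Aars2 had the largest falls among the mitochondrial enzymes. Nars2, for asparagine (chromosome 7, 96950839 to 97064758), had 15.3, 17.3 and 18.3 CPM in control and 3.33, 4.08 and 2.28 CPM in LPS livers. That is 80.9% lower, with no overlap (log2 fold change -2.39, SE 0.23, adjusted p = 9.124e-07). Vars2, for valine (chromosome 17, 35655634 to 35667639), had 20.4, 17.7 and 16.7 CPM in control and 3.24, 5.2 and 3.99 CPM in LPS livers, 77.1% lower (-2.13, SE 0.21, adjusted p = 1.254e-06). In both genes each control library was above every LPS library. Aars2, for alanine (chromosome 17, 45503515 to 45520843), had 17.8, 15.7 and 13.8 CPM in control and 3.24, 3.66 and 3.99 CPM in LPS livers, 76.8% lower (-2.11, SE 0.21, adjusted p = 1.079e-06). The raw counts of these 3 genes in LPS libraries were 32 to 74, so the LPS levels rest on few reads. Their cytosolic counterparts Nars, Vars and Aars did not pass the threshold.

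Iars2, for isoleucine, fell from 70.7 ± 3.56 to 37.9 ± 1.79 CPM (-0.90, SE 0.12). It shares 2034 exon bases with Rab3gap2 on the other strand, which had a log2 fold change of -0.02. Hars2 for histidine (-0.84), Yars2 for tyrosine (-0.76), Tars2 for threonine (-0.67) and Fars2 for phenylalanine (-0.59) fell as well. Fars2 had the highest level per length among the mitochondrial enzymes in control livers, at 13.0 ± 1.31 CPM per kilobase. Iars2 was within that spread, at 12.9 ± 0.65 CPM per kilobase. Fars2 had 24.6, 20.2 and 23.6 CPM in control and 14.6, 12.1 and 18.6 CPM in LPS livers (SE 0.18, adjusted p = 0.00924). Hars and Hars2 lie head to head with 195 shared exon bases, and went in opposite directions (0.51 and -0.84). The sources used here do not say whether counting was by strand, so reads in such shared bases cannot be assigned. Fars2 shares 501 exon bases with Nrn1 on the other strand, which had 22.9 CPM in control livers and fell (-3.20). The overlaps of Fars2 and Iars2 limit their ranks per length. Cars2 shares 422 exon bases with Naxd, which fell as well (-1.17).

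Pars2, for proline (chromosome 4, 106651069 to 106655282), was the mitochondrial enzyme that rose. It had 2.50, 1.61 and 1.92 CPM in control and 4.61, 4.64 and 4.56 CPM in LPS livers, a 2.31-fold change (1.21, SE 0.32, adjusted p = 0.00448). Its counts were 30 to 33 in control and 54 to 66 in LPS libraries, and with any 1 library left out it stood at 1.04 to 1.38. With Wars2 and Mars2, Pars2 was among the 3 lowest of the 36 genes per length in control livers. Wars2, for tryptophan, had 5.05 ± 0.276 CPM in control and 3.15 ± 0.824 CPM in LPS livers (-0.69, SE 0.29, adjusted p = 0.054). It passed the threshold without LPS replicate 1 (-0.89), with library totals (-0.75), without a filter (-0.72) and with counts divided by 2 (-0.71).

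Lars2, for leucine, was the least even synthetase within a group. It had 44.8, 44.6 and 44.6 CPM in the control livers but 40.8, 103 and 30.1 CPM in the LPS livers. LPS replicate 2 stood far above the other LPS libraries, and the coefficient of variation in LPS livers was 67.9%, against 0.853% to 41% for the other 35 genes. The log2 fold change was 0.38 (SE 0.32, adjusted p = 0.316), turned to -0.33 without LPS replicate 2 and passed the threshold at 0.70 without LPS replicate 3. No direction can be given for this gene. Ears2, for glutamate, had the smallest difference of the mitochondrial enzymes, with 12.2, 12.3 and 12.6 CPM in control and 12.3, 12.9 and 14.7 CPM in LPS livers. Rars2 (-0.39), Sars2 (-0.37), Cars2 (-0.18) and Mars2 (0.40) did not pass the threshold.

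**Figure D2:**
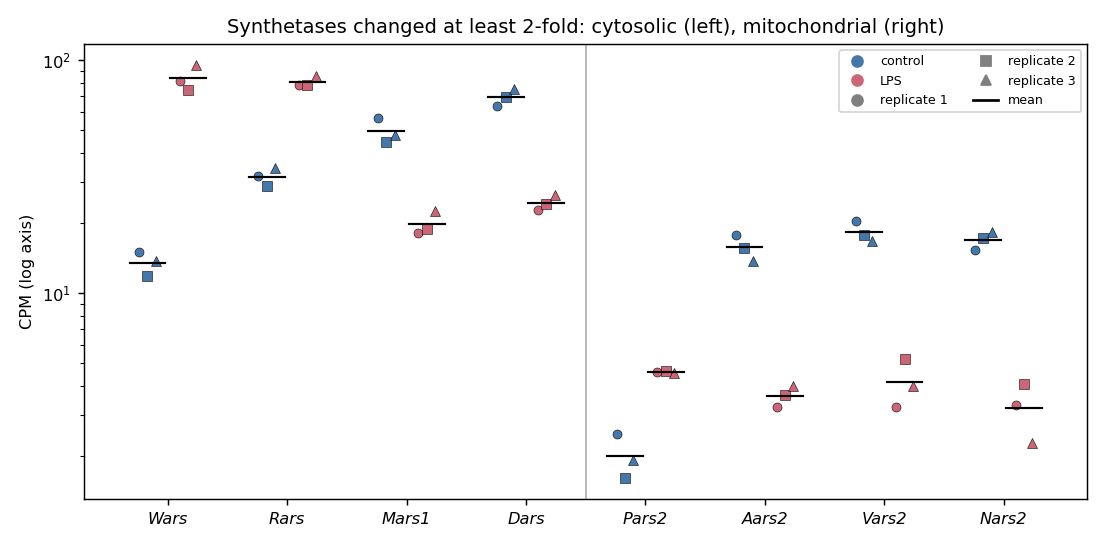
CPM on a log axis in each of the 6 libraries for the 8 synthetases called and changed at least 2-fold, with symbols for replicates and bars for group means. Wars goes from 11.8 to 15 CPM in control to 74.3 to 95.5 CPM in LPS livers, and Nars2 from 15.3 to 18.3 CPM down to 2.28 to 4.08 CPM.

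For 13 amino acids 1 cytosolic gene could be set against 1 mitochondrial gene within the same library, where the library size cancels. Counts were not divided by length, so only the change of a ratio is read. The log2 ratio of cytosolic to mitochondrial counts was higher on average in LPS livers for 12 of 13 amino acids, with a median change of 1.36. Leucine is among the 12 (0.22), but its change was -0.20 without LPS replicate 3, and it rests on the uneven Lars2. With any 1 library left out, this median ran from 1.19 to 1.49. Tryptophan changed most, with 3.00, 2.20 and 2.87 Wars reads per Wars2 read in control libraries and 20.7, 23.0 and 41.8 in LPS libraries. For asparagine the ratio was 5.36, 4.92 and 4.86 in control and 24.0, 21.1 and 39.1 in LPS libraries, with a change of 2.42 on the log2 scale. For tryptophan the cytosolic gene rose (2.64) and the mitochondrial gene stood at -0.69 without passing the threshold. For asparagine the mitochondrial gene fell (-2.39) and the cytosolic gene stood at -0.01.

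Methionine was the exception, with a change of -1.71. Its ratio was 22.6, 9.65 and 17.8 in control and 6.66, 4.62 and 3.59 in LPS libraries. The groups overlapped for cysteine, isoleucine, leucine and serine, whose changes were 0.22 to 0.40. With 3 libraries against 3, an exact permutation test of a single ratio cannot go below p = 0.1, and none was run.

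**Figure D3:**
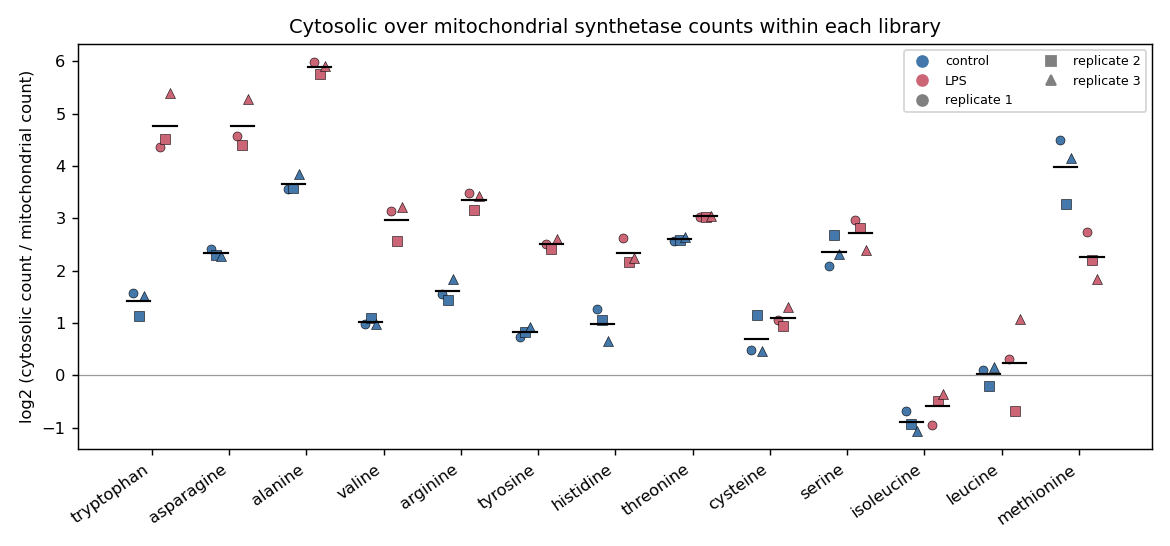
Log2 ratio of cytosolic to mitochondrial synthetase counts in each library for 13 amino acids, ordered by the change from control to LPS, with bars for group means. The LPS points lie above all control points for 8 amino acids, below them for methionine (change -1.71), and overlap them for the other 4. Among single tested genes the groups did not overlap in 67.4%, and no such share was taken for ratios of gene pairs.

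The enzymes of the multisynthetase complex were split. Of its 8 cytosolic members 4 rose (Rars, Kars, Lars and Qars) and 3 fell (Dars, Mars1 and Iars), with a median of 0.04, and Eprs did not pass the threshold. The calls of Lars and Qars were lost under some settings. Of the 12 cytosolic genes outside the complex 5 rose, and the other 7 did not pass the threshold, with a median of 0.17. Changed genes made up 87.5% inside and 41.7% outside the complex, against 62.3% of all tested genes, and the difference was not tested. Among the scaffolds, Aimp1 rose from 26.2 ± 0.936 to 37.6 ± 2.98 CPM (0.52, SE 0.12, adjusted p = 0.00242). Eef1e1 (AIMP3) rose from 5.26 ± 2.03 to 12.1 ± 3.45 CPM (1.18, SE 0.29, adjusted p = 0.00311). Aimp2 had 2.79 ± 0.752 and 2.23 ± 1.11 CPM and did not pass the threshold (-0.30, SE 0.43). By catalytic fold, 5 of 10 cytosolic class I genes rose and 2 fell, and 4 of 10 class II genes rose and 1 fell. Eprs, which holds both a glutamate and a proline enzyme, was counted in class I only. Farsa and Farsb, subunits of the same enzyme, were counted as separate genes. Changed genes were 70% of class I and 50% of class II. Among all tested genes 31.3% were higher and 31.0% lower, which is the background also for the lists that follow.

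Tarsl2, a second threonine enzyme of the cytosol outside the 36 genes, fell from 10.4 ± 1.2 to 1.66 ± 0.509 CPM (-2.65, SE 0.28). Of 6 genes of indirect charging and of initiator formylation 4 fell and 1 rose, with a median of -0.76. The mitochondrial glutaminyl-tRNA is made by an amidotransferase whose subunits differed: Gatb (-1.49, SE 0.21) and Gatc (-0.76) fell, while Qrsl1 rose (1.12). Gatc and Qrsl1 were named after their values were seen. In the selenocysteine route, Pstk (-1.79, SE 0.35) and Sepsecs (-0.76, SE 0.12) fell. Of 5 tested editing and quality factors, the peptidyl-tRNA hydrolase Ptrh2 rose (1.41, SE 0.19) and the deacylase Dtd1 fell (-0.85, SE 0.32, adjusted p = 0.0325). Leaving out control replicate 1 or 3, or LPS replicate 1 or 2, ended the call of Dtd1, whose groups overlapped.

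Mitochondrial translation factors mostly fell, 7 of 10, with a median of -0.69. The fall of Mrrf (-0.39) was lost with DESeq2, and without control replicate 2 or 3 or LPS replicate 1 or 2. That of Guf1 (-0.57) was lost without LPS replicate 3 (-0.41). Mrrf and Guf1 were named after their values were seen. Gfm2, a ribosome recycling factor, went from 41.1 ± 2.78 to 11.7 ± 2.09 CPM (-1.81, SE 0.15), Tufm, which carries charged transfer RNA to the mitochondrial ribosome, from 59.7 ± 5.21 to 18.8 ± 7.03 CPM (-1.66, SE 0.21), and the translocase Gfm1 from 80.1 ± 2.79 to 39.9 ± 2.29 CPM (-1.01, SE 0.12). Of 7 cytosolic elongation factors 4 fell and 1 rose, with a median of -0.52. Eef1a1, the cytosolic carrier of charged transfer RNA, went from 2619 ± 155 to 1827 ± 331 CPM (-0.52, SE 0.15). Its exchange factor subunits Eef1d (-0.61, SE 0.12) and Eef1g (SE 0.11, 128 ± 3.01 to 89.0 ± 0.915 CPM) and the kinase Eef2k (-1.45, SE 0.33) fell, and Eif5a rose (0.46, named after its value was seen). Another exchange factor subunit, Eef1b2, did not pass the threshold (0.21, SE 0.12, adjusted p = 0.145). Eef1b2 had 190 ± 11.3 CPM in control and 220 ± 14.1 CPM in LPS livers, and was also named after its value was seen. Transfer RNA transcription and maturation was covered by 16 genes, 6 of which rose and 5 fell (median 0.10). The rise of Gtf3c2 (0.31) was lost with DESeq2 and with any 1 library left out. That of Polr3e (0.42) was lost with DESeq2, and without any 1 control replicate or LPS replicate 3. Library totals and no filter on low counts ended both calls. Gtf3c2 and Polr3e were named after their values were seen. The nuclear exporter of transfer RNA, Xpot, fell from 97.2 ± 4.78 to 39.3 ± 4.25 CPM (-1.31, SE 0.13), as did Gtf3c1, a subunit of the factor that recruits RNA polymerase III (-1.34, SE 0.14). Maf1, the repressor of RNA polymerase III, rose from 23.3 ± 1.56 to 49.3 ± 7.07 CPM (1.08, SE 0.14).

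Genes of the eIF2 and Atf4 pathway went both ways, with more rises. Of 12 eIF2 kinases, phosphatase subunits and exchange factor subunits 6 rose and 1 fell, with a median of 0.34. Eif2ak2, the interferon-induced kinase PKR (1.22, SE 0.16), Eif2ak3, the kinase PERK of the endoplasmic reticulum (1.10, SE 0.18), and Ppp1r15a, which directs dephosphorylation of eIF2 (1.12, SE 0.19), rose. Eif2ak4, the sensor of uncharged transfer RNA, rose from 8.85 ± 0.749 to 13.3 ± 1.63 CPM (0.59, SE 0.18, adjusted p = 0.0134). That rise was not called without control replicate 2 (0.50) or LPS replicate 3 (0.49). The most abundant member, Ppp1r15b, had 105 ± 13.1 and 126 ± 13.0 CPM (0.26, adjusted p = 0.104), and passed the threshold without LPS replicate 3 (0.35). The fall was that of Eif2b5 (-0.35, adjusted p = 0.0484). It was not called by DESeq2, nor by edgeR when control replicate 1 or 3, or LPS replicate 1 or 3, was left out. The rise of Eif2b1 (0.42) was not called without control replicate 2 (0.31). Eif2ak4, Eif2b1 and Eif2b5 were named after their values were seen.

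Among 22 tested Atf4 pathway genes there were 11 rises and 4 falls (median 0.89). The rise of Aldh18a1 (1.02) was lost with library totals, DESeq2, no filter, the replicate block and any 1 library left out. That of Phgdh (1.63) was lost without control replicate 1 (1.39) or 2 (1.39), or LPS replicate 3 (1.49). Aldh18a1 and Phgdh were named after their values were seen. Chac1, a glutathione-degrading enzyme, went from 0.946 ± 0.0757 to 74.4 ± 16.0 CPM (6.29, SE 0.22, adjusted p = 6.679e-11), and Ddit3 from 9.71 ± 0.526 to 64.3 ± 8.45 CPM (2.72, SE 0.14). Atf4 itself, named after its value was seen, rose from 97.8 ± 10.2 to 473 ± 34.4 CPM (2.27, SE 0.13). The falls were Cth, which makes cysteine from cystathionine (-4.60, SE 0.21), the related factor Atf5 (754 ± 51.0 to 143 ± 18.6 CPM, -2.40, SE 0.14), Shmt2 (-1.71) and Cebpg (-1.27). Shmt2 and Cebpg were picked out with their values already seen. Asns, the asparagine synthetase, had 9.11 ± 6.72 and 15.2 ± 3.24 CPM and did not pass the threshold (0.76, SE 0.37, adjusted p = 0.0891). Control replicate 1 had 16.8 CPM, against 4.72 and 5.77 CPM in the other control livers, and without it Asns passed the threshold at 1.53. Asns also passed with the replicate block (0.93) and without a filter (0.73), and it too was named after its value was seen. Of 8 tested amino acid transporters of this pathway 6 rose and 1 fell, with a median of 1.34. Slc3a2, the shared heavy chain, went from 31.7 ± 3.76 to 116 ± 9.36 CPM (1.87, SE 0.13), the arginine and lysine transporter Slc7a1 rose (3.05, SE 0.35), and Slc38a2, the most abundant, went from 179 ± 65.1 to 443 ± 36.8 CPM (1.31, SE 0.21). Slc7a11, the cystine exchanger, was at 2.13 ± 0.375 CPM in LPS livers and had no control reads. With a floor of 3 counts for the 3 control libraries together, that is at least 34.7-fold higher if each count is an independent fragment. Most low counts were even numbers, so the true bound may be lower. The median of the list stayed at 1.34 with the 34.7-fold bound. The fall was Slc1a4 (-2.42, named after its value was seen).

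Interferon-gamma response genes, chosen because Wars is known as one, rose beside it. Of 11 tested 8 rose and the other 3 (Ciita, Ifngr1 and Ifngr2) did not pass the threshold, with a median of 1.60. The chemokine Cxcl9 went from 4.90 ± 1.07 to 1732 ± 67.8 CPM, the guanylate-binding proteins Gbp2 from 3.98 ± 0.547 to 784 ± 119 CPM and Gbp3 from 4.83 ± 0.812 to 189 ± 30.8 CPM. Ido1, the tryptophan-degrading enzyme of the same response, had no count in any of the 6 libraries. That allows up to 3 counts in each, or more if counts are not independent fragments. Of 14 genes of the unfolded protein response, which shares the kinase PERK with the Atf4 pathway, 13 rose and 1 fell, with a median of 2.05. The chaperone Hspa5 went from 882 ± 175 to 6625 ± 1368 CPM, and Creld2 (3.54, SE 0.18), Manf (3.30, SE 0.20) and Xbp1 (2.14, SE 0.13) rose. The fall was the sensor Ern1 (-0.65, named after its value was seen).

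**Figure D4:**
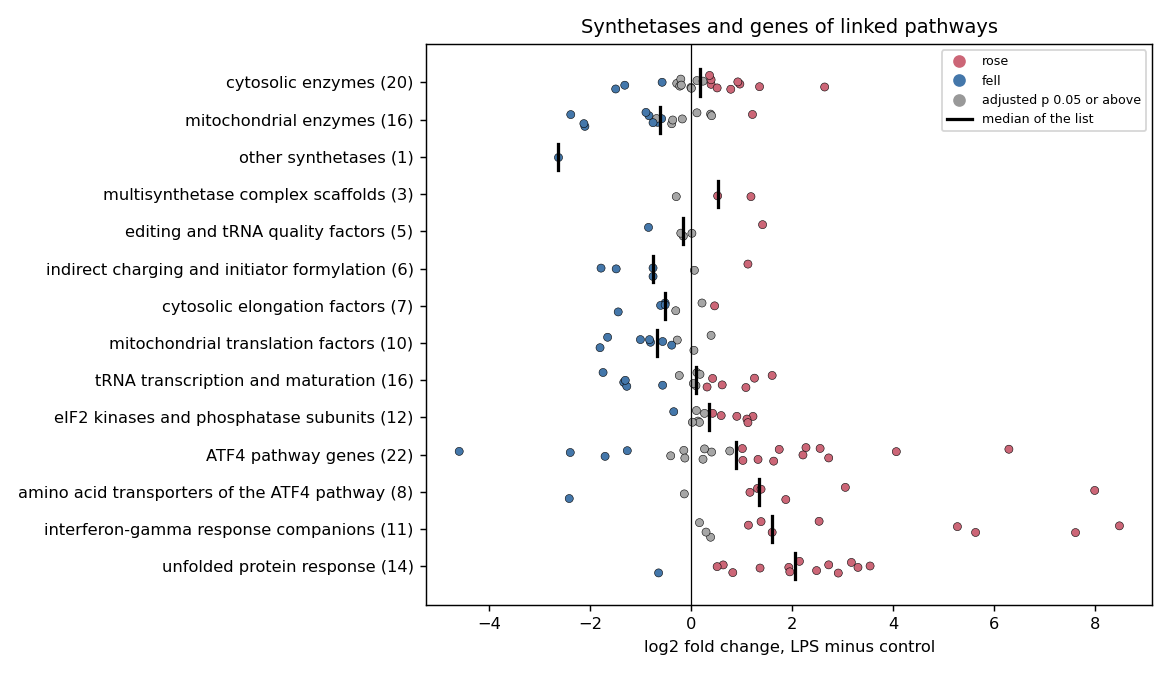
Log2 fold change (LPS minus control) of every tested gene of the synthetase lists and of 12 lists of linked pathways, coloured by edgeR call, with the median of each list as a black bar and the number of tested genes in brackets. Medians run from -2.65 for the list that holds Tarsl2 alone to 2.05 for the unfolded protein response, with the cytosolic enzymes at 0.17 and the mitochondrial ones at -0.63.

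Markers of other cells moved in the same libraries. Of 12 hepatocyte markers 9 fell and 2 rose, and their summed level was 122570 to 134889 CPM in control and 74763 to 101364 CPM in LPS livers, so the defining transcripts of the labelled tissue were abundant in all 6. All 8 tested neutrophil markers of 9 listed rose, with sums of 5.3 to 8.42 CPM in control and 209 to 252 CPM in LPS livers. Of 9 Kupffer cell markers 8 fell and 1 rose, with sums of 314 to 358 and 81.8 to 132 CPM. Of 6 monocyte markers 4 rose and 1 fell, with sums of 40.6 to 54.5 and 69.7 to 84.9 CPM. Sums were 2.04 to 4.05 and 9.3 to 10.8 CPM for 8 markers of T and NK cells, 4.44 to 5.59 and 1.43 to 2.67 CPM for 4 of B cells, 237 to 264 and 164 to 254 CPM for 6 of endothelium, 205 to 211 and 209 to 228 CPM for 6 of stellate cells, and 19.4 to 32.3 and 117 to 138 CPM for 5 of cholangiocytes. Single genes carried some of these sums. Of the cholangiocyte markers Spp1 (17.5 to 95.5 CPM), Sox9 and Epcam rose and Krt19 fell (-2.70), and of the 3 tested T and NK markers Gzmb rose (0.203 to 5.34 CPM). Of the B cell markers 2 fell, and of the endothelial and the stellate markers 1 rose and 3 fell in each list. No marker was at 0 in all 6 libraries. Their part in the changes of Wars and of the other synthetases was not tested.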

How the data were processed

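Per the submitters' processing notes, bcl2fastq 2.0, HISAT2, StringTie, DESeq2, limma and the build mm10 were used, without roles. The authors deposited raw read counts per gene in 1 table per library, with fields 8 characters wide. For the counting tool, the annotation and the strand setting, the state is: not given in the sources used here. Between 90.2% and 92.2% of counts from 1 to 10 were even numbers in each library, so counts may stand for fewer independent fragments than their size.

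Genes were compared in R 4.3.3 with edgeR 4.0.16 (TMM, filterByExpr with minimum count 10, quasi-likelihood F test, 2-sided, Benjamini-Hochberg over 12078 genes, threshold 0.05). The biological coefficient of variation was 16.4%. The fit was tested on simulated data. Far fewer genes changed there than were called in these livers, so that test does not cover changes this widespread. No library repeated another of its group (chi-square per degree of freedom 11.6 to 31.2). Lengths are those of the APPRIS principal transcript in GENCODE M21, and positions are RefSeq GRCm38.p6 (mm10). Alternatives were DESeq2 1.42.0, its size factors, library totals, no filter, a replicate block, each library left out and, added after the data were seen, counts divided by 2.

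The members, lists and motifs were chosen with earlier results of these data known, and some items are not reported here. Values in every library are given for members called and changed at least 2-fold, and for the highest per length and the smallest change of each class. In the other lists the rule names the most abundant gene, the 3 genes of lowest adjusted p, and all scaffolds.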

Additional observations from a re-analysis of the deposited data

How the results depend on the processing

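Across 12 other settings, 28 of the 36 synthetases kept their call, 17 of them among the 21 called, and no called synthetase changed sign. Library totals as the only scaling gave 5 falls among cytosolic enzymes and a median of -0.71 for mitochondrial ones, and moved the median of all tested genes from 0.01 to -0.05. Without a filter the mitochondrial median was -0.67. With a library left out it ran from -0.68 to -0.56, rises among mitochondrial enzymes numbered 1 to 2 (2, with Lars2 added, without LPS replicate 3), falls among editing factors 0 to 1, rises among mitochondrial translation factors 0 to 1 (1 without control replicate 1) and falls in the eIF2 list 0 to 1. DESeq2 called 0 falls in the eIF2 list. The cause was not tested. The replicate numbers of the titles were not shown to pair the livers (same-number correlations of -7.448e-04, 0.1042 and 0.03522), and with the replicate block 9 cytosolic enzymes rose and 3 fell, 1 mitochondrial enzyme rose and 8 fell, and 3780 genes were higher and 3766 lower, against 3781 and 3747. With counts divided by 2, Eprs was called (-0.30). Pars2, Mars2, Wars2, Aars2, Vars2 and Nars2 had under 40 counts in at least 1 library, which limits their precision.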
